A study of Homo sapiens with 6 samples.

Results

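The 8 genes described here, WT1, OSR1, OSR2, SALL1, CITED1, GDNF, ITGA8 and FOXD1, are markers of the metanephric mesenchyme, the embryonic tissue from which the filtering units of the kidney form. They were chosen by name, through their Ensembl identifiers, and are 8 of the 60107 genes in the deposited count table. All 8 passed the filter on low counts. RNA was measured in cells of H9, a human embryonic line kept in culture as stem cells, that had been differentiated toward nephron progenitor cells and collected at the end of day 9. Of the 6 libraries, 3 came from cells in complete medium, which contains glutamine, and 3 from cells deprived of glutamine from the first day of the protocol on. All 6 share the cell line, the protocol and the collection day, and nothing in the labels says whether replicates were separate cultures, so the p-values below measure only the spread between these libraries, which may be technical.

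In the embryo, the metanephric mesenchyme secretes GDNF, which binds the co-receptor GFRA1 and the receptor RET on the neighbouring ureteric bud and makes the bud grow and branch. The bud in turn keeps a cap of mesenchyme cells as self-renewing nephron progenitors. WT1, OSR1 and SALL1 are zinc-finger transcription factors needed for this mesenchyme, CITED1 is a transcriptional cofactor of the least differentiated cap cells, and ITGA8 is an integrin subunit through which the mesenchyme binds nephronectin on the bud. OSR2 is the close relative of OSR1. FOXD1 is a forkhead factor of the stromal progenitors that surround the cap, so it marks a neighbouring lineage and not the nephron progenitors themselves.

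Sequences before the starts of 3 of these genes are shown because the genes differ in how their transcripts lay between the groups: GDNF had its higher values without glutamine, whereas CITED1 and FOXD1 had their lower values there. Each line holds bases before 1 RefSeq transcript start (GRCh38.p14, minus strand, 5′ to 3′), kept only where they lie outside the gene as GENCODE 29 places it, with matches to the searched motifs in capitals. GDNF is shown at chr5:37840042-37840291, CITED1 at chrX:72307188-72307407 and FOXD1 at chr5:73448778-73449027. GDNF has 4 annotated start windows in the RefSeq table and CITED1 has 3, of which the farthest upstream is shown, and FOXD1 has 1.
GDNF: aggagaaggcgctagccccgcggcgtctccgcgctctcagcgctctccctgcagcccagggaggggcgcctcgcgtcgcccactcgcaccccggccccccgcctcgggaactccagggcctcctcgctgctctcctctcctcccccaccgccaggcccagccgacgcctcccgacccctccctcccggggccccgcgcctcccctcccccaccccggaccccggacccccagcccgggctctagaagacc
CITED1: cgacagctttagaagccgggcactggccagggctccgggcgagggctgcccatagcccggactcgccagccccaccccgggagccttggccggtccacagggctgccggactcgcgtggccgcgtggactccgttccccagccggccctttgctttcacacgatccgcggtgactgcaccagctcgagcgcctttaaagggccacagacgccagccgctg
FOXD1: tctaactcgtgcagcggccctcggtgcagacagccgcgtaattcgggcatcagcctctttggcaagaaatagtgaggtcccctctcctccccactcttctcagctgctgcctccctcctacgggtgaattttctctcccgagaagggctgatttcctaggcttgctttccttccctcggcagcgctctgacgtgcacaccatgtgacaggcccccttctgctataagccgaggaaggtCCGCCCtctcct

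The motifs searched, on both strands, were the TATA box TATAAA, the CCAAT box CCAAT, the GC box GGGCGG, the motif GCGTGGGNG bound by the zinc fingers of WT1 and EGR1, and the homeodomain motif TAATTA. The capitals in FOXD1 mark 1 GC box on the opposite strand, and the GDNF and CITED1 stretches held none of the 5 motifs. Among all 35116 RefSeq windows of 300 bases, from 250 bases before to 50 after a start, 11.5% held TATAAA, 34.6% CCAAT, 45% GGGCGG, 2.8% GCGTGGGNG and 4.84% TAATTA. Over such windows all 3 of CITED1 held TATAAA, and the single window of ITGA8 held 4 matches to GGGCGG, but 203 of the 250 bases before that ITGA8 start lie inside the gene in GENCODE 29. For CITED1, 30 of the 250 bases do. A CITED1 window also held GCGTGGGNG, a WT1 window TAATTA and a GDNF window other than the one shown CCAAT. Windows of CITED1, WT1, GDNF and FOXD1 held GGGCGG as well. The table had windows for 5 of the 8 genes, WT1, CITED1, GDNF, ITGA8 and FOXD1. These letters are a description of the sequence and not evidence of binding.

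The libraries held 78220507 to 84746566 counts, so each of the 8 genes rested on at least 40 counts in every library. Replicate 1 with glutamine stood apart from its group. On log2 CPM (counts scaled to library size), its Pearson's r, taken over genes, which do not replicate one another, was 0.9758 and 0.9762 with the other libraries with glutamine and 0.9908 to 0.9927 with the 3 libraries without. The values of the 8 markers and the counts and medians of the gene lists are therefore given with and without that library. In all 6 libraries the pluripotency genes POU5F1 and NANOG lay under 0.2 CPM, while the 8 markers together held 682 to 805 CPM with glutamine and 740 to 845 CPM without.

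Whether withholding glutamine changed these markers was tested with edgeR's quasi-likelihood test on all 22613 genes that passed the filter. At a threshold of 0.05 on edgeR's p, adjusted by Benjamini-Hochberg, 0 of the 8 genes were called, as were 0.00442% of all genes tested. Every count of 0 calls by edgeR with all libraries in the gene lists below stands beside that share. At an unadjusted p under 0.05 there were 6 of 8, all except WT1 and SALL1, against 29.7% of all genes tested. DESeq2 called 4 of 8, GDNF as higher and OSR1, ITGA8 and FOXD1 as lower without glutamine, against 14% of the genes to which it gave an adjusted p. The groups did not overlap for 5 of 8, with GDNF and OSR2 higher and CITED1, ITGA8 and FOXD1 lower without glutamine. Over all genes tested, 34.2% did not overlap, 17.3% higher and 16.9% lower. The median log2 fold change of the 8 genes was -0.02 and that of all genes 0, which for the 8 genes joins 4 positive and 4 negative values.

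When replicate 1 with glutamine was left out, 8 of the 8 were called by edgeR, 4 higher and 4 lower, in a fit that called 41.3% of all genes (22.3% higher and 19% lower). Leaving out any other library called 0 of 8. Replicate 1 with glutamine was singled out after its values were seen, because it lay nearer to the other group. Dropping a library chosen in this way narrows the spread within its group and tends to widen the difference between groups. Calls, fold changes and p-values without it, here and below, are therefore partly set by that choice. They describe how far the results depend on 1 library and cannot decide whether glutamine changed these genes.

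**Figure D1:**
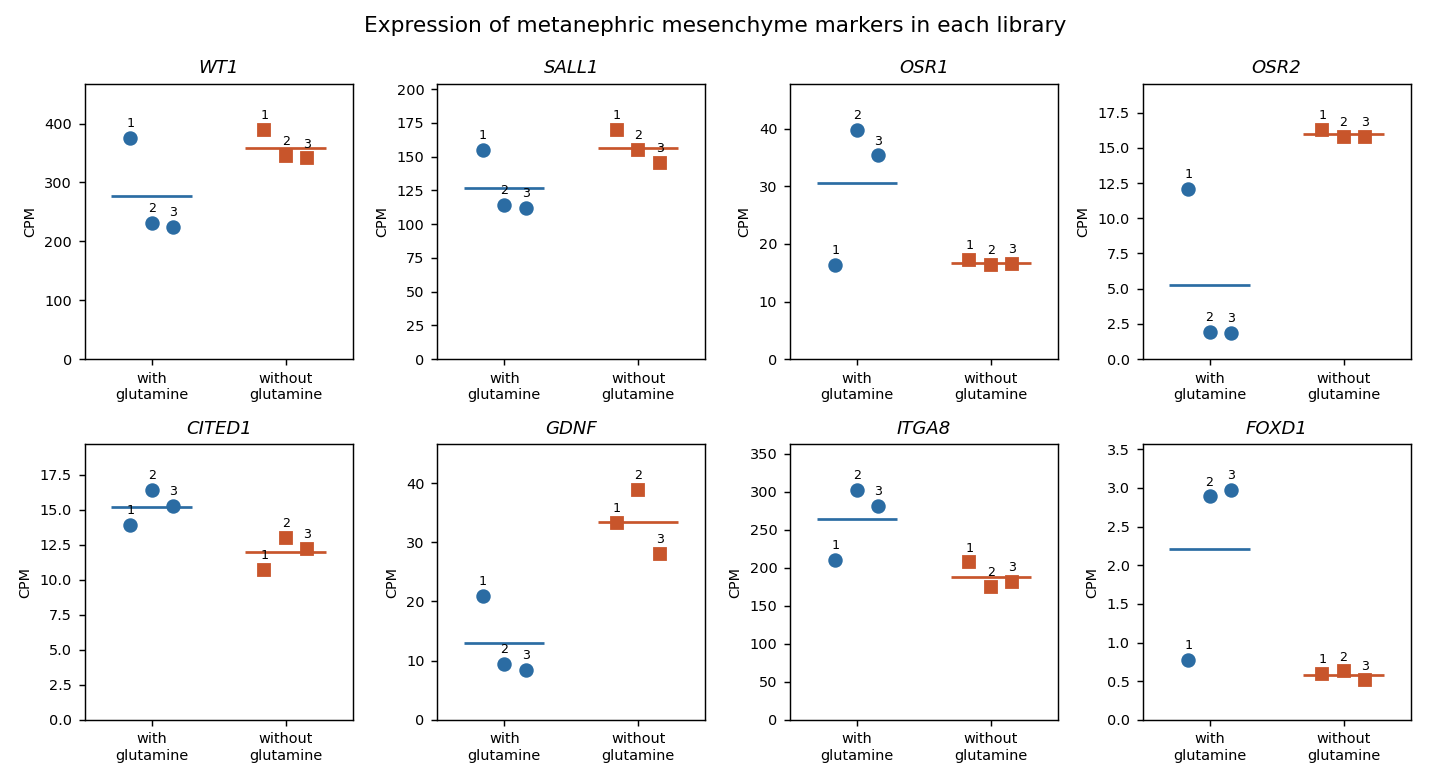
Expression of the 8 markers in CPM (vertical axis, linear, from 0) in each library, with glutamine as blue circles and without as orange squares. Numbers are replicate numbers and horizontal lines are group means. Replicate 1 with glutamine lies beside the libraries without glutamine for WT1, SALL1, OSR1 and FOXD1, and between the groups for GDNF.

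The 3 zinc-finger factors WT1, SALL1 and OSR1 did not separate the groups. WT1 (ENSG00000184937, chromosome 11, 32387775 to 32435630, minus strand), needed for the mesenchyme to survive, was at 376, 231 and 225 CPM with glutamine (replicates 1, 2 and 3, in this order throughout) and at 390, 345 and 341 CPM without. Replicate 1 with glutamine was above 2 of the 3 libraries without, so the groups overlapped, while replicates 2 and 3 were below all of them. The group means were 277 ± 85.5 and 359 ± 27.4 CPM (SD, n = 3), and the log2 fold change was 0.37 (SE 0.20, adjusted p by edgeR 0.247). Without that library the log2 fold change was 0.66 (SE 0.08, adjusted p by edgeR 0.000147), a change in size of over 1.5 times.

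SALL1 (ENSG00000103449, chromosome 16, 51135975 to 51151367, minus strand), which keeps nephron progenitors from being lost and recruits the repressive NuRD complex, had the same layout. It was at 155, 114 and 112 CPM with glutamine and at 170, 155 and 145 CPM without. The first library with glutamine again reached the range of the group without, and the other 2 lay under it. The log2 fold change was 0.30 (SE 0.14, adjusted p by edgeR 0.189) with all libraries and 0.47 (SE 0.08, adjusted p by edgeR 0.00123) without that library.

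The related factors OSR1 and OSR2 lay in opposite directions. OSR1 (ENSG00000143867, chromosome 2, 19351485 to 19358653, minus strand), one of the earliest markers of intermediate mesoderm, was at 16.4, 39.9 and 35.4 CPM with glutamine. Without glutamine it was at 17.3, 16.4 and 16.6 CPM, a narrow range within which replicate 1 with glutamine also fell. Its log2 fold change was -0.87 (SE 0.30, adjusted p by edgeR 0.117) with all libraries and -1.16 (SE 0.08, adjusted p by edgeR 4.89e-06) without replicate 1 with glutamine.

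OSR2 (ENSG00000164920, chromosome 8, 98944403 to 98952104, plus strand), a relative with a similar zinc-finger region, was at 12.1, 1.95 and 1.83 CPM with glutamine and at 16.3, 15.8 and 15.8 CPM without. The groups did not overlap, although replicate 1 with glutamine was nearer to the other group than to its own. The log2 fold change was 1.59 (SE 0.67, adjusted p by edgeR 0.165), and it was 3.08 (SE 0.11, adjusted p by edgeR 9.41e-08) without that library. This was the largest shift between the 2 fits among the 8 genes.

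Per kilobase of exon, the order of OSR1 and OSR2 differed between libraries. The level of OSR2 divided by that of OSR1 was 1.33, 0.0884 and 0.0939 in replicates 1, 2 and 3 with glutamine and 1.70, 1.75 and 1.72 without. OSR2 was thus the higher of the pair in 4 libraries, the 3 without glutamine and replicate 1 with it, and OSR1 in the other 2. The log2 ratio was -2.17 ± 2.23 with glutamine and 0.79 ± 0.02 without (SD, n = 3). The difference of 2.95 had an exact two-sided permutation p of 0.1, the smallest that 20 regroupings of the libraries can give. This ratio was chosen after the values of both genes were seen.

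**Figure D2:**
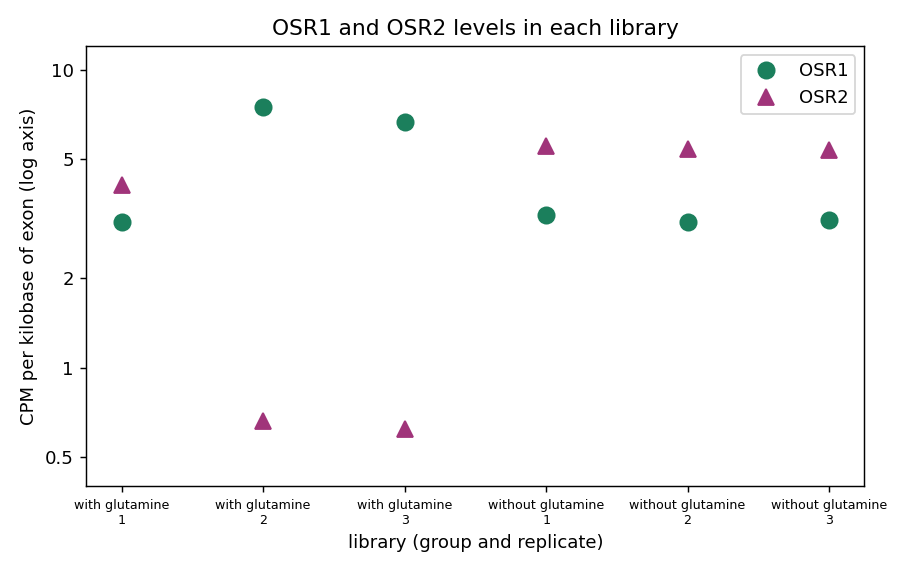
Levels of OSR1 (green circles) and OSR2 (purple triangles) in CPM per kilobase of exon (vertical log axis) in each of the 6 libraries (horizontal axis). OSR2 lies above OSR1 in replicate 1 with glutamine and in all 3 libraries without, and far below it in replicates 2 and 3 with glutamine, at ratios of 0.0884 and 0.0939.

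CITED1 (ENSG00000125931, chromosome X, 72301638 to 72307187, minus strand), the cap marker lost when progenitors begin to differentiate, was at 13.9, 16.4 and 15.3 CPM with glutamine and at 10.7, 13 and 12.2 CPM without. The groups did not overlap, and replicate 1 with glutamine stayed above all libraries without. The difference was small: 15.2 ± 1.24 against 12.0 ± 1.15 CPM (SD, n = 3), and the log2 fold change was -0.35 (SE 0.11, adjusted p by edgeR 0.107). It was -0.40 (SE 0.10, adjusted p by edgeR 0.0103) without replicate 1 with glutamine.

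GDNF (ENSG00000168621, chromosome 5, 37812677 to 37839686, minus strand), the ligand the mesenchyme sends to the bud, was at 20.9, 9.46 and 8.45 CPM with glutamine and at 33.3, 38.8 and 28.0 CPM without. Every library without glutamine was above every library with it, and replicate 1 with glutamine lay between the rest of its group and the other group. The means were 12.9 ± 6.92 and 33.4 ± 5.42 CPM (SD, n = 3), and the log2 fold change was 1.37 (SE 0.34, adjusted p by edgeR 0.0762). It was 1.90 (SE 0.14, adjusted p by edgeR 6.59e-06) without replicate 1 with glutamine, and DESeq2 called the gene with all libraries (adjusted p from DESeq2 0.000239). With all libraries GDNF had the smallest edgeR p of the 8 genes.

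The antisense gene GDNF-AS1 spans the whole of GDNF on the other strand, and the strand setting of the counting is not given in the sources used here. It was at 12.8, 12.1 and 8.82 CPM with glutamine and at 15.2, 20.0 and 12.5 CPM without, with overlapping groups and a log2 fold change of 0.50 (SE 0.21, adjusted p by edgeR 0.164). Its part in the counts of GDNF was not tested. WT1-AS, which overlaps the first bases of WT1, was at 52.4 to 58.0 CPM with glutamine and 46.1 to 53.5 CPM without, and its log2 fold change of -0.17 (SE 0.08, adjusted p by edgeR 0.222) had the opposite sign to that of WT1. FOXD1-AS1, which lies inside FOXD1, had 0 counts in every library.

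ITGA8 (ENSG00000077943, chromosome 10, 15513949 to 15720125, minus strand), the integrin subunit that helps to maintain GDNF in the mesenchyme, was at 210, 302 and 281 CPM with glutamine and at 207, 175 and 181 CPM without. The groups did not overlap, but only by a few CPM between replicate 1 with glutamine and replicate 1 without. The log2 fold change was -0.49 (SE 0.14, adjusted p by edgeR 0.0879), and -0.63 (SE 0.08, adjusted p by edgeR 0.000272) without replicate 1 with glutamine. GDNF and ITGA8, which act in 1 loop in the embryo, thus lay in opposite directions here.

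FOXD1 (ENSG00000251493, chromosome 5, 73444827 to 73448527, minus strand), the stromal factor, was the least abundant of the 8. It was at 0.776, 2.89 and 2.97 CPM with glutamine, which is 63, 226 and 233 counts, and at 0.593, 0.625 and 0.509 CPM without, which is 51, 49 and 40 counts. The groups did not overlap, with replicate 1 with glutamine just above the libraries without. The log2 fold change was -1.93 (SE 0.51, adjusted p by edgeR 0.081), and -2.34 (SE 0.17, adjusted p by edgeR 6.12e-06) without that library. In bulk RNA, fewer cells of a type and less RNA per cell cannot be told apart, which applies to all 8 genes.

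**Figure D3:**
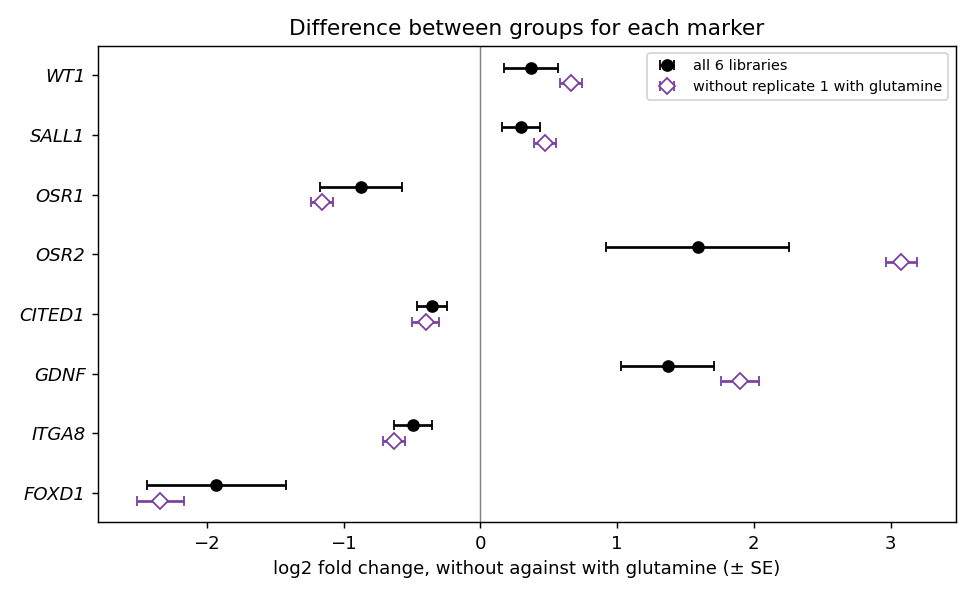
Log2 fold change without against with glutamine (horizontal axis) for each marker (vertical axis), with bars of 1 SE, from all 6 libraries (black circles) and without replicate 1 with glutamine (open purple diamonds). All 8 genes keep their sign between the fits, and OSR2 moves most, from 1.59 to 3.08.

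The place of replicate 1 with glutamine differed between genes. On a log2 scale (with 0.1 CPM added) running from 0 at the mean of replicates 2 and 3 with glutamine to 1 at the mean of the libraries without, it lay at 1.11 for WT1, 1.03 for OSR1, 0.97 for SALL1, 0.87 for OSR2 and 0.83 for FOXD1. ITGA8 lay at 0.74, GDNF at 0.65 and CITED1 at 0.46. The transcription factors of the mesenchyme and stroma were thus near the group without glutamine in that library, and the cofactor CITED1 was about midway. These positions are a description with no test.

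Per kilobase of exon, WT1 was the most abundant of the 8 in every library, at 54.7 to 91.4 CPM per kilobase with glutamine and 82.9 to 94.8 without. With glutamine the next were ITGA8 (27.9 to 40.1), SALL1 (19.8 to 27.3) and CITED1 (7.91 to 9.31), none of which overlapped its neighbour. OSR1 (3.09 to 7.51), GDNF (1.98 to 4.89) and OSR2 (0.625 to 4.11) overlapped one another, and so did OSR2 and FOXD1 (0.296 to 1.13).

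Without glutamine the order of these levels per kilobase was WT1, SALL1 (25.7 to 30), ITGA8 (23.3 to 27.5), GDNF (6.55 to 9.09), CITED1 (6.10 to 7.39), OSR2 (5.38 to 5.56), OSR1 (3.09 to 3.26) and FOXD1 (0.194 to 0.238). The ranges of SALL1 and ITGA8 overlapped, but SALL1 was the higher within each library (30, 27.3 and 25.7 against 27.5, 23.3 and 24.1). The ranges of GDNF and CITED1 overlapped too. GDNF was the higher in replicates 1 and 2 and the lower in replicate 3 (6.55 against 6.91), so that pair had no fixed order. GDNF moved from the sixth place by mean to the fourth and OSR1 from the fifth to the seventh. These places are a description of mean levels.

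Across the 6 libraries WT1 and SALL1 varied together, with Pearson's r of 0.99 between their log2 CPM, and OSR1 varied with FOXD1 (0.98). OSR1 and OSR2 varied oppositely (-0.99). For CITED1 the values ran from 0.77 to 0.86 with ITGA8, OSR1 and FOXD1 and from -0.87 to -0.84 with SALL1, OSR2, GDNF and WT1. These values rest on 6 points and on the same libraries, 2 of which, replicates 2 and 3 with glutamine, lie apart from the rest.

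On the receiving side of GDNF, 0 of 16 genes of the list of receptors, sister ligands and response genes were called by edgeR. At an unadjusted p by edgeR under 0.05 there were 7, beside 29.7% of all genes. DESeq2 called 6, beside 14% of the genes to which it gave an adjusted p. Without replicate 1 with glutamine edgeR called 4 as higher and 2 as lower, against 22.3% and 19% of all genes. The receptor RET was at 7.92, 3.84 and 2.55 CPM with glutamine and at 3.80, 3.61 and 4.11 CPM without, with overlapping groups (log2 fold change -0.31, SE 0.38, adjusted p by edgeR 0.599), and its log2 fold change turned positive without replicate 1 with glutamine (0.27, SE 0.17, adjusted p by edgeR 0.242). The co-receptor GFRA1 was at 107, 83.3 and 85.1 CPM with and 87.0, 95.7 and 103 CPM without, also overlapping (0.05, SE 0.12, adjusted p by edgeR 0.796). The groups thus overlapped for both receptor chains and not for the ligand.

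Of the same list, 5 of 16 genes were higher and 2 lower without glutamine, in groups that did not overlap, beside 17.3% and 16.9% of all genes. ETV4, a transcription factor induced by RET and by FGF signalling, was at 66.6, 37.7 and 33.8 CPM with glutamine and 104, 117 and 100 CPM without (log2 fold change 1.22, SE 0.25, adjusted p by edgeR 0.0689). Its partner ETV5 overlapped, at 91.2 to 113 CPM with and 101 to 114 CPM without. The feedback inhibitors SPRY1 and SPRY4 were higher without overlap, with log2 fold changes of 0.24 and 0.50 (adjusted p by edgeR 0.13 and 0.0833), and so was WNT11 (0.78), while SOX9 (-0.55) and GFRA2 (-0.66) were lower. The median of the list was 0.10, beside 0 for all genes, and 0.20 without replicate 1 with glutamine, beside 0.01.

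The 14 regulators of GDNF included 5 higher and 4 lower ones without glutamine, in groups that did not overlap. Among all genes tested, 17.3% were higher and 16.9% lower in this way. By edgeR 0 were called (11 at an unadjusted p under 0.05, beside 29.7% of all genes). DESeq2 called 6, beside 14% of the genes to which it gave an adjusted p. Without replicate 1 with glutamine edgeR called all 14, 8 as higher and 6 as lower, in a fit that called 41.3% of all genes. The group 11 HOX genes, which act with EYA1 and PAX2 on GDNF, were near 0 in 2 libraries: HOXD11 was at 0.542, 0 and 0.0127 CPM with glutamine and at 3.22, 5.33 and 6.05 CPM without. HOXA11 was at 1.21, 0.0384 and 0.0764 CPM with and 3.45, 5.26 and 3.64 CPM without. In both genes replicate 1 with glutamine was above its group and below all libraries without, as it was for GDNF.

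PAX2, which acts with them, was at 150, 17 and 12.9 CPM with glutamine and 245, 200 and 146 CPM without, with overlapping groups and a log2 fold change of 1.71 (adjusted p by edgeR 0.234), or 3.72 (adjusted p by edgeR 1.8e-06) without replicate 1 with glutamine. Their partner EYA1 had the opposite sign. It was at 164, 222 and 202 CPM with glutamine and at 155, 134 and 131 CPM without (log2 fold change -0.48, SE 0.13, adjusted p by edgeR 0.0796). SIX4 (-0.92) was lower without overlap as well. SLIT2 and ROBO2, a ligand and receptor that restrict where GDNF is expressed, were split, with SLIT2 higher (0.66, SE 0.13, adjusted p by edgeR 0.0689) and ROBO2 lower (-0.99, SE 0.24, adjusted p by edgeR 0.0748) and no overlap in either. Of the BMP genes, BMP4 was higher without overlap (0.46), and its inhibitor GREM1 was at 112, 342 and 357 CPM with and 137, 97.2 and 103 CPM without, with overlapping groups. The median over the 14 genes was 0.31, and 0.42 without replicate 1 with glutamine.

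Around ITGA8, 7 of 13 genes were higher without glutamine with no overlap, and none was lower with no overlap, beside 17.3% and 16.9% of all genes. By edgeR 0 were called (8 at an unadjusted p under 0.05, beside 29.7% of all genes). DESeq2 called 6, all higher, beside 14% of the genes to which it gave an adjusted p. Without replicate 1 with glutamine edgeR called 10, all higher, beside 22.3% of all genes. Its partner subunit ITGB1 was at 326, 313 and 349 CPM with glutamine and 394, 454 and 474 CPM without (log2 fold change 0.42, SE 0.09, adjusted p by edgeR 0.0703). Its ligand nephronectin, NPNT, was at 0.704 to 1.23 CPM with and 1.49 to 2.27 CPM without (0.94, SE 0.27, adjusted p by edgeR 0.0858), and the ligand fibronectin, FN1, was at 224 to 253 CPM with and 358 to 537 CPM without (0.94, SE 0.15, adjusted p by edgeR 0.068). FREM1, of the FRAS1 and FREM complex that anchors nephronectin, was at 118, 35 and 37.7 CPM with and 154, 146 and 159 CPM without. By group, ITGA8 therefore had its lower values without glutamine, where its partner and these ligands had their higher ones. In replicate 1 with glutamine ITGA8 lay near the group without, while FN1 (224 CPM) and ITGB1 (326 CPM) stayed below that group. Of the same list, VTN (0.11) and SPP1 (2.07) overlapped between groups, and TNC (1.29) was higher without overlap. The list median was 0.68, and 0.89 without replicate 1 with glutamine.

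For SALL1, 0 of the 12 NuRD subunits were called by edgeR, beside 0.00442% of all genes. DESeq2 also called 0, beside 14% of the genes to which it gave an adjusted p. At an unadjusted p by edgeR under 0.05 there were 3, beside 29.7% of all genes. Without replicate 1 with glutamine edgeR called 4, in a fit that called 41.3% of all genes. Beside 17.3% and 16.9% of all genes tested, 2 subunits were higher and 3 lower without overlap in all libraries. Their log2 fold changes were small apart from CHD3 (0.74, SE 0.33, adjusted p by edgeR 0.178), which was at 223, 94.1 and 96.8 CPM with glutamine and 217, 223 and 252 CPM without, and whose log2 fold change was 1.28 (SE 0.08, adjusted p by edgeR 2.96e-06) without replicate 1 with glutamine. CHD4, the main motor subunit, was at 787 to 828 CPM with and 704 to 748 CPM without (-0.15, SE 0.06). The list median was 0.05, and 0.01 without replicate 1 with glutamine.

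Among the paralogs of the 8 genes, 7 of 8 were tested, and 0 were called by edgeR. At an unadjusted p by edgeR under 0.05 there were 3, beside 29.7% of all genes. DESeq2 called CITED2 as higher and FOXD2 as lower, beside 14% of the genes to which it gave an adjusted p. Without replicate 1 with glutamine edgeR called these 2 and FOXD3, in a fit that called 41.3% of all genes. CITED2 alone of the list did not overlap between groups, beside 34.2% of all genes tested. CITED2 was at 87.7 to 99.6 CPM with glutamine and 116 to 133 CPM without (log2 fold change 0.41, SE 0.08, adjusted p by edgeR 0.0689), opposite in sign to CITED1. SALL2 and SALL4 overlapped between groups, at 0.00 and -0.20. FOXD2 and FOXD3 had the sign of FOXD1, at -0.66 and -1.41, with overlapping groups. FOXD4 did not pass the filter. The median was 0, and 0.07 without replicate 1 with glutamine.

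**Figure D4:**
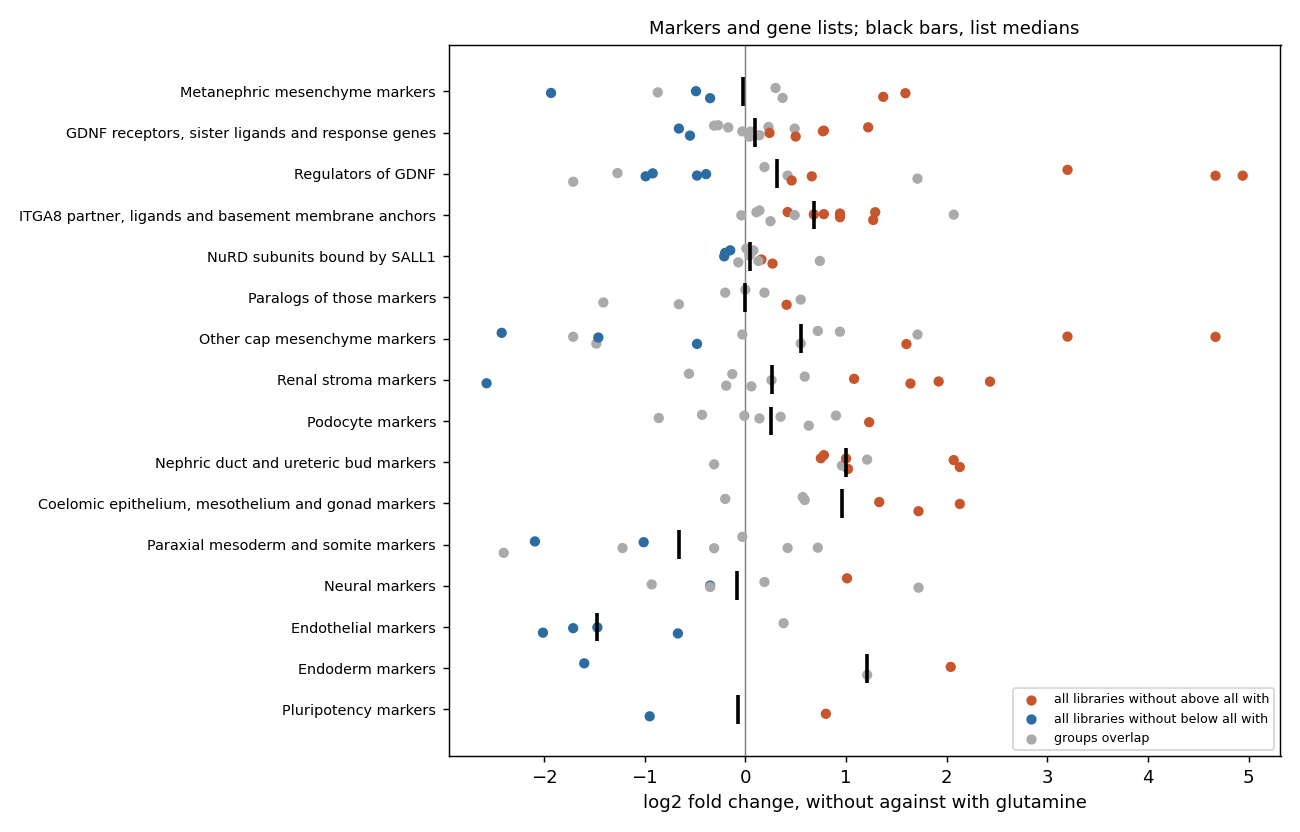
Log2 fold change without against with glutamine (horizontal axis) for each tested gene of the 8 markers and of 15 gene lists (vertical axis), with list medians as black bars. Orange and blue points are genes whose groups do not overlap, higher and lower without glutamine, and grey points are genes whose groups overlap. The 8 markers spread to both sides of 0. No gene is blue around ITGA8, nor among the paralogs or the podocyte, nephric duct and coelomic markers.

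Markers of the cell types that such a culture can hold were counted in the same way. Their shares without overlap stand beside 17.3% higher and 16.9% lower among all genes. The calls given for these lists stand beside 29.7% of all genes at an unadjusted p under 0.05 by edgeR and 14% by DESeq2. Without replicate 1 with glutamine edgeR called 41.3% of all genes. Of 13 other cap mesenchyme markers, 3 were higher and 3 lower without overlap, with a summed level of 475 to 554 CPM with glutamine and 464 to 643 CPM without. SIX2, the defining cap marker, was at 6.57, 34.8 and 27.8 CPM with and 9.70, 7.80 and 7.27 CPM without, so that it lay opposite to WT1, SALL1 and GDNF and alongside OSR1 and FOXD1. LYPD1 (log2 fold change 1.60) was higher and MEOX2 (-1.46) and DAPL1 (-2.42) lower without overlap, and the other 3 of these 6 genes, EYA1, HOXA11 and HOXD11, are also on the list of GDNF regulators. By edgeR 0 were called (9 at an unadjusted p under 0.05) and by DESeq2 5, and edgeR called 12 without replicate 1 with glutamine. The list median was 0.55, and 0.64 without that library.

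The 11 renal stroma markers, the lineage of FOXD1, were split: 4 were higher and 1 lower without overlap, beside 17.3% and 16.9% of all genes. The sum of the list was 1190 to 1280 CPM with glutamine and 1030 to 1380 CPM without. NTN1, a guidance factor made by FOXD1-positive stroma, was at 25.2, 116 and 119 CPM with and 14.3, 15.9 and 13.5 CPM without (log2 fold change -2.57, SE 0.53, adjusted p by edgeR 0.0689). TCF21, DCN and LUM were higher without overlap, at 2.43, 1.64 and 1.08, and at 4.13, 2.87 and 1.03 without replicate 1 with glutamine. FOXD1 and NTN1 thus lay on the other side from these 3 genes. By edgeR 0 were called (4 at an unadjusted p under 0.05) and by DESeq2 2, LUM and NTN1, and edgeR called 9 without replicate 1 with glutamine. The list median was 0.26, and 0.52 without that library.

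Of the 10 nephric duct and ureteric bud markers, 6 were higher and none lower without overlap. Beside this and the other such counts of this paragraph stand 17.3% higher and 16.9% lower among all genes. The duct list summed to 112 to 280 CPM with glutamine and 393 to 448 CPM without. Much of that sum was the keratin gene KRT8, at 73.1 to 93.4 CPM with and 129 to 148 CPM without. LHX1, a factor of the early duct, had 71.8, 4.51 and 4.66 CPM with and 137, 114 and 89.5 CPM without. It was called by neither method with all libraries (adjusted p 0.217 by edgeR and 0.245 from DESeq2). RET alone of the list had a negative log2 fold change (-0.31). By edgeR 0 were called (5 at an unadjusted p under 0.05) and by DESeq2 5. In both cases these were GATA3, CALB1, WNT11, KRT8 and KRT18. Without replicate 1 with glutamine edgeR called 8 of 9, all higher, and the median went from 1 to 1.49. The list's WNT9B stayed under 0.1 CPM in every library. Coelomic epithelium, mesothelium and gonad markers, a tissue that also expresses WT1, summed to 36.1 to 147 CPM with and 191 to 216 CPM without, with 3 of 8 higher without overlap. Most of that sum came from EMX2, which is also on the duct list, TBX18, which is also on the stroma list, and LRRN4, while NR5A1 and UPK3B stayed under 0.15 CPM. Podocyte markers, another cell type with much WT1, summed to 74.1 to 124 CPM with and 92.2 to 124 CPM without, with 1 of 9 higher without overlap. In the coelomic and podocyte lists edgeR called 0 (1 and 2 at an unadjusted p under 0.05) and DESeq2 0 and 1, and edgeR without replicate 1 with glutamine called 4 and 5, with medians that went from 0.96 to 1.52 and from 0.25 to 0.51. The part of these cell types in the values of the 8 markers was not tested.

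Paraxial mesoderm and somite markers, a lineage next to the intermediate mesoderm, summed to 177 to 285 CPM with glutamine and 171 to 256 CPM without. Of these 8 genes 0 were higher and 2 lower without overlap. Beside this and the other such counts of this paragraph stand 17.3% higher and 16.9% lower among all genes. PAX3 was at 20.8, 115 and 118 CPM with and 22.4, 12.4 and 13.4 CPM without. Its 2 highest libraries were the same as those of OSR1. Of the 8 log2 fold changes in this list 6 were negative and 2 positive, those of FOXC2 (0.42) and UNCX (0.72). UNCX was at 14.1, 18.6 and 14.8 CPM with and 34.3, 26.9 and 16.8 CPM without, with overlapping groups (adjusted p by edgeR 0.122). Endothelial markers summed to 28.2 to 88.6 CPM with and 16.7 to 22.1 CPM without, with 4 of 5 lower without overlap, and most of the sum was KDR. Neural markers summed to 456 to 495 CPM with and 454 to 589 CPM without, mostly NES, with 1 higher and 1 lower without overlap. Of 6 endoderm markers 3 were tested, with 1 higher and 1 lower without overlap. The defining FOXA2 and AFP did not pass the filter. With glutamine both had 0 counts in all libraries. Without glutamine FOXA2 had 3, 3 and 4 counts and AFP 1, 1 and 1, so both lay at the floor in both groups. Pluripotency markers summed to 340 to 436 CPM with and 337 to 407 CPM without, nearly all of it LIN28A and DPPA4. These lay in opposite directions, each without overlap. LIN28A was lower without glutamine (log2 fold change -0.95, SE 0.26, adjusted p by edgeR 0.0829) and DPPA4 higher (0.80, SE 0.19, adjusted p by edgeR 0.0724). In the paraxial, endothelial, neural, endoderm and pluripotency lists edgeR called 0 genes, with 5, 4, 2, 1 and 2 at an unadjusted p under 0.05. DESeq2 called 4, 3, 1, 1 and 2 of them, among them PAX3, KDR, TUBB3, SOX17 and both tested pluripotency genes. Of these calls 1, 0, 1, 0 and 1 were higher without glutamine and the rest lower. Without replicate 1 with glutamine edgeR called 6, 4, 3, 3 and 2, of which 1, 0, 1, 2 and 1 were higher. The list medians were -0.66, -1.47, -0.08, 1.21 and -0.07 with all libraries and -0.76, -1.58, -0.12, 1.86 and -0.08 without that one. Their part in the values of the 8 markers was not tested.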

How the data were processed

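The authors deposited raw counts per Ensembl gene and, in a second table, counts divided by 1 size factor per library, a normalized signal per the deposited file's name from DESeq2. That table was used for a check only: in each library the ratio of the 2 was constant within 0.001 of its value. The submitters' processing notes name cutadapt, Trim Galore, FastQC, STAR 2.5.2b, DESeq2 and GRCh38. The libraries were made with a stranded mRNA kit, per the labels' protocols. The counting program, strand setting and annotation release are not given in the sources used here, so counts of overlapping and antisense genes are uncertain. Each column was matched to a sample by the sample's description, since the headings name days 0 and 9 while the labels place all samples at day 9, and every direction in the text rests on this match.

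Symbols, positions and exon lengths came from GENCODE 29 (GRCh38), which matched 56531 of 60107 identifiers, and promoters from RefSeq. Counts were tested with edgeR 4.0.16 in R 4.3.3 (quasi-likelihood, legacy = FALSE, TMM, filterByExpr), adjusted by Benjamini-Hochberg over all genes tested with a threshold of 0.05. The standard error was taken as the log2 fold change over the square root of F. CPM are counts scaled to a common library size after TMM. For correlations a prior count of 2 was added before taking log2. Alternatives were other scalings and filters, DESeq2 1.42.0, limma-voom (limma 3.58.1), edgeR's legacy setting, the replicate block and leaving out each library. The edgeR step was tried on simulated counts with 200 changed genes. With all 6 libraries it recovered 58% of the genes changed by a log2 of 1. Of those changed by a log2 of 2 it recovered 93%, with 11 false calls. Each gene was drawn independently, whereas in the real data replicate 1 with glutamine stood apart over many genes. These shares therefore do not give how many real changes the fit would miss.

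The 8 genes and the lists were chosen with earlier results of these data known. The genes named are the 8 markers, members of the lists (receptors and response genes of GDNF, regulators of GDNF, ITGA8 partners, NuRD subunits, paralogs, and markers of cap mesenchyme, renal stroma, podocytes, nephric duct, coelomic epithelium, paraxial mesoderm, neural, endothelial, endoderm and pluripotent cells), and for each marker the 3 protein-coding genes with a mean of at least 5 CPM and the highest Pearson's r with it. Antisense genes overlapping a marker fall outside that rule and were added for their position. Some genes of these lists are counted but not reported by name here.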

Additional observations from a re-analysis of the deposited data

How the results depend on the processing

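All 8 genes kept the sign of their log2 fold change in all 14 alternatives. Of 112 such values 100 kept their side of the threshold and 12 became called, 8 of them without replicate 1 with glutamine and 4 under DESeq2, which called 4 of the 8 genes. Leaving out 1 library called from 0 to 8 of the 8 genes and from 0 to 9573 of all genes, the highest without replicate 1 with glutamine. The count over all genes, 1 with all libraries, was 0 under upper quartile scaling, limma-voom and edgeR's legacy setting, 2 with no filter and 3041 under DESeq2. Upper quartile scaling moved the split at an unadjusted p under 0.05 from 3334 higher and 3384 lower to 2628 and 4295. The cause was not tested. The fit with a replicate block called 0 of all genes, and same-numbered libraries did not deviate together (r of their deviations -0.02, 0 and 0.03), so the numbers were not taken as pairs. Across the fits that left out 1 library, log2 fold changes ran from 0.24 to 0.66 for WT1, 1.18 to 3.08 for OSR2, 1.13 to 1.90 for GDNF and -2.34 to -1.66 for FOXD1. Depth limits FOXD1 most, with 40 to 233 counts a library.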

Other observations

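The genes whose log2 CPM followed each marker most closely over the 6 libraries, among at least 11265 other protein-coding genes, were mostly not kidney markers. WT1 was followed by SORL1, HEYL and EFNB3 (Pearson's r 0.9996, 0.9989 and 0.9986). SORL1, a sorting receptor, was at 269, 96.7 and 92.2 CPM with glutamine and at 297, 227 and 215 CPM without. SALL1 was followed by MYH14, ATG4D and AES (0.9993, 0.9990 and 0.9987), and OSR1 by SERPINB9, NOCT and SERTAD2 (0.9989, 0.9979 and 0.9977). OSR2 was followed by GUCY1B1, RAPGEF5 and PPP1R14C (0.9999, 0.9995 and 0.9995). GUCY1B1, a subunit of the nitric oxide receptor, was at 95.9, 21.2 and 20.4 CPM with glutamine and at 119, 116 and 116 CPM without, and PPP1R14C was at 7.38, 0.307 and 0.28 CPM with and 11.8, 12.1 and 10.2 CPM without.

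GDNF was followed by EZH2, SHCBP1 and UACA (0.9992, 0.9979 and 0.9978). EZH2, the enzyme of a repressive histone mark, was at 132, 109 and 107 CPM with glutamine and at 145, 149 and 139 CPM without. ITGA8 was followed by SH3PXD2A, SLC4A7 and ZNF496 (0.9983, 0.9979 and 0.9974). FOXD1 was followed by MRPS5, ENO3 and SLC29A1 (0.9993, 0.9985 and 0.9984), of which the muscle-type enolase ENO3 was at 34.4, 155 and 169 CPM with and 29.1, 28.0 and 23.9 CPM without. CITED1 stood apart, since 0 genes had an r over 0.99 with it, against 50 to 234 for the other 7 markers. Its nearest were AP4B1, WDR11 and TMEM101 (0.9871, 0.9825 and 0.9802). High r over 6 points is common here, because replicates 2 and 3 with glutamine lie apart from the other libraries for many genes, and it says nothing of shared control.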
